A study of Mus musculus with 18 samples.

Results

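Levels of 9 plasma cell differentiation genes were followed in B cells from 2 lymphoid tissues of allergic mice. The genes were *Prdm1*, *Irf4*, *Xbp1*, *Ell2*, *Tent5c*, *Jchain*, *Mzb1*, *Sdc1*, and *Tnfrsf17*. They were chosen by symbol with earlier results of these data known, and each had 1 row among the 55491 genes of the table. Bulk RNA-Seq, which measures the summed RNA of all cells in a sample, was performed on 18 libraries in 6 groups of 3. All mice were female BALB/cJ, were sensitized i.p. with 20 μg of the egg allergen ovalbumin (OVA) and 1 mg of the adjuvant alum on days 0 and 14 when 4 to 6 weeks old, and were 10 to 12 weeks old at harvest on day 44. On days 28 and 42 they were treated i.v. with 100 μL of PBS, with 100 μg of soluble OVA, or with 2.5 mg of OVA NPs, which are polymer nanoparticles that encapsulate OVA. Each treatment gave B cells of the spleen and of Peyer's patches, which are follicles in the wall of the small intestine. The PBS-treated mice carried the same sensitization as the others, and no unsensitized mice were among these groups. B cells were isolated by negative selection, so other cells were removed by antibody and the B cells were left untouched. Peyer's patches were first digested with collagenase and DNase and spleens were not, so the tissue and its preparation cannot be told apart. The labels call the 3 libraries of a group biological replicates and do not say whether equal numbers in the 2 tissues mark the same mouse.

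Plasma cells arise from activated B cells when Blimp-1, the product of *Prdm1*, silences the B cell program and XBP1 expands the endoplasmic reticulum (ER) so that antibody can be secreted in bulk. IRF4 acts at both ends of this path, because activated B cells raise it early and plasma cells need it to form and survive. Peyer's patches hold germinal centers at all times and are a main site where B cells switch to IgA. In a bulk sample, a higher level can come from more cells of a kind or from more RNA per cell, and these cannot be told apart.

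Library totals ran from 14177253 to 30052297 counts, and levels are given as CPM, counts per 1000000 counts of the library after TMM scaling. A count of 3 equaled 0.105 to 0.220 CPM, an allowance for counting error only. Genes of the immunoglobulin loci took 0.627% to 0.904% of counts in every library. A list of 7 B cell markers summed to between 7270 and 8843 CPM in spleen and to between 4415 and 6300 CPM in Peyer's patch, with no overlap. A list of 7 T cell markers summed to between 1.62 and 4.29 CPM in spleen, against 6.46 to 32.9 CPM for Peyer's patch. A list of 8 intestinal epithelium markers summed to between 13.6 and 17.0 CPM in spleen, against 257 to 1335 CPM for Peyer's patch. Mitochondrial transcripts took 2.82% to 3.41% of counts in spleen, 4.97% to 7.67% in the PBS and soluble OVA groups of Peyer's patch, and 9.08% to 9.80% in its OVA NP group. Within Peyer's patch, PBS library 2 had the highest sum over 16 immediate-early genes, at 6175 CPM, and OVA NP library 1 had the lowest of its group, at 2434 CPM against 4152 and 4422 CPM. Results on *Irf4* against PBS, between the OVA forms, and between tissues are therefore given also without these libraries.

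The name of the gene group was checked against the levels, which can be compared between genes only per length. In the spleen of PBS-treated mice, levels per kilobase of exon were 81.1 ± 5.86 CPM for *Mzb1*, 43.1 ± 11.6 for *Jchain*, 42.99 ± 1.19 for *Irf4*, and 19.03 ± 1.43 for *Xbp1* (mean ± SD, n = 3). They were 5.53 ± 0.0627 for *Ell2*, 3.69 ± 0.665 for *Sdc1*, 1.02 ± 0.165 for *Tent5c*, 0.760 ± 0.143 for *Prdm1*, and 0.195 ± 0.0392 for *Tnfrsf17*. The low members thus include *Sdc1* and *Tnfrsf17*, whose products CD138 and BCMA mark plasma cells. Which cells the RNA of any member came from was not measured. In the Peyer's patch of PBS-treated mice *Jchain* led, at 205 ± 19.5 CPM per kilobase, ahead of *Mzb1* at 98.2 ± 6.61 and *Irf4* at 73.5 ± 18.02.

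A gene was called when its adjusted p was under 0.05 and its absolute log2 fold change above 0.25, and the 8 members other than *Tnfrsf17* passed the filter on low counts in every comparison. In the spleen, 5 of these 8 were called higher after OVA NPs than after PBS (*Xbp1*, *Ell2*, *Tent5c*, *Jchain*, and *Mzb1*) and 0 lower, where 8.6% of all 14200 tested genes were called higher and 6.35% lower. After soluble OVA the same 5 were called higher and *Irf4* lower, against 10.5% of all genes called higher and 6.72% lower. The PBS-treated mice served both comparisons. Because the members were chosen with earlier results of these data known, these counts describe the members and do not test them as a group. Between OVA NPs and soluble OVA 0 members were called, and 0.238% of all genes were. The median log2 fold change of the 8 members was 0.43 after OVA NPs and 0.46 after soluble OVA, and that of all tested genes was 6.19e-04 and -0.01. Libraries of the compared groups did not overlap for 6 of 8 members after OVA NPs and for 7 of 8 after soluble OVA, as for 37.2% and 37.8% of all genes.

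The same treatments gave other counts in Peyer's patch. After OVA NPs, 0 members were called and 0% of 15798 genes were. At an unadjusted p under 0.05 there were 1573 genes in this comparison, and DESeq2, a second count-based test, called 150 genes and 1 member, *Jchain*. After soluble OVA, 3 members were called higher (*Ell2*, *Jchain*, and *Mzb1*) and *Irf4* lower, against 13.5% of genes called higher and 13.9% lower. Between OVA NPs and soluble OVA, *Mzb1* was called lower after OVA NPs, where 16.3% of genes were called lower. The groups did not overlap for 3 of 8 members between OVA NPs and PBS and for 4 of 8 between soluble OVA and PBS, as for 17.3% and 45.1% of all genes.

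**Figure D1:**
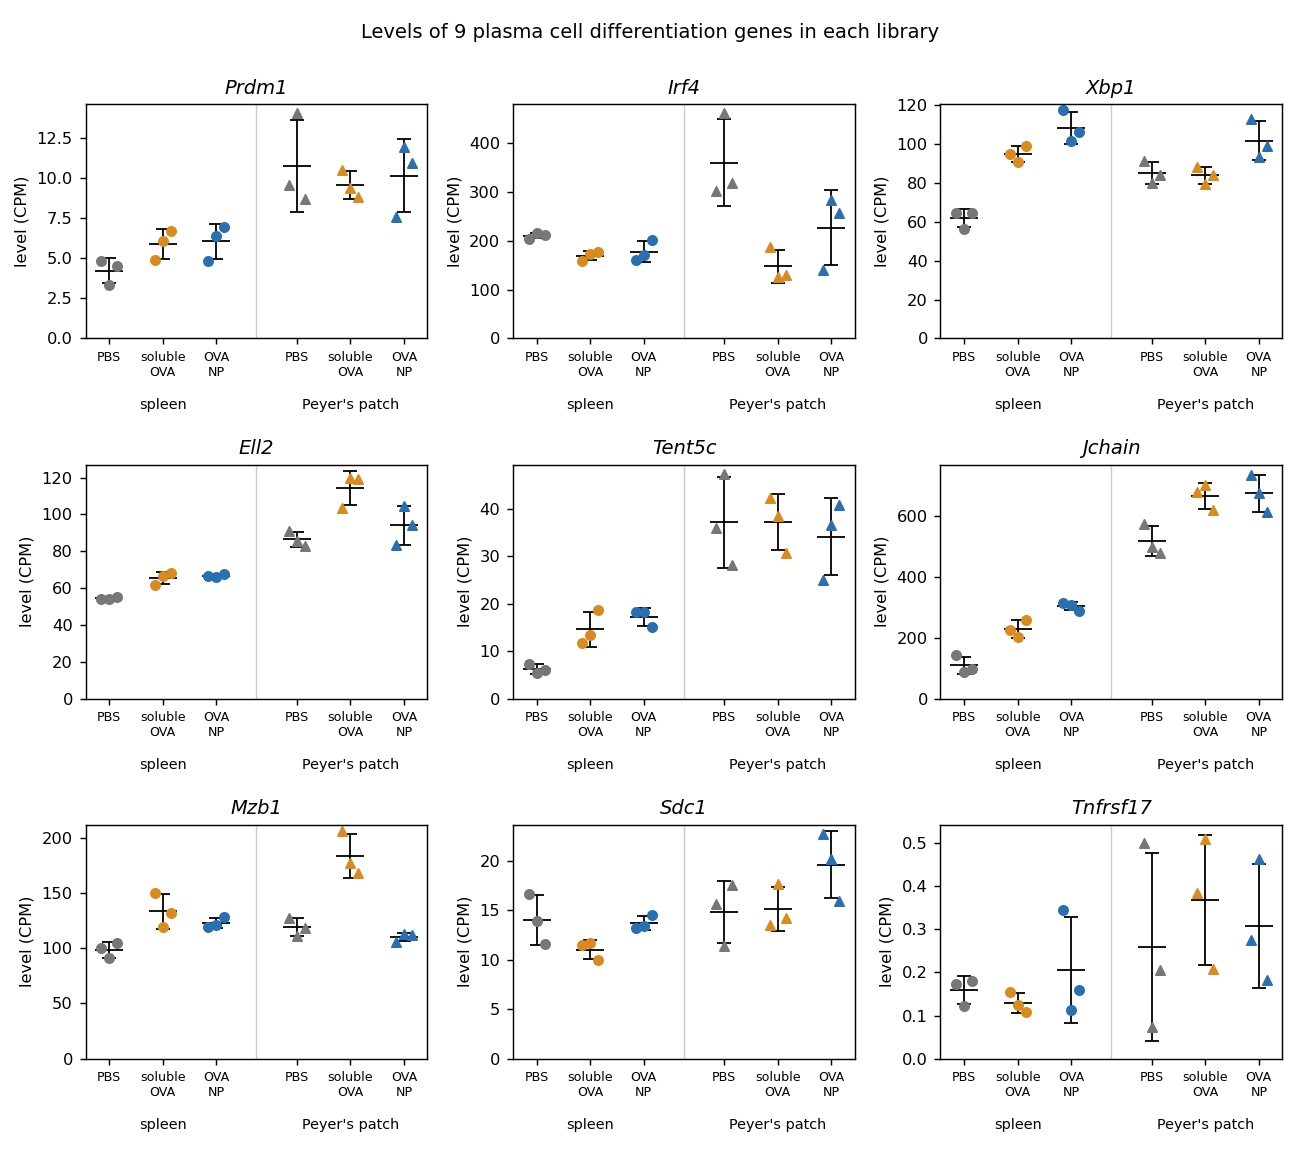
Level of each of the 9 genes (CPM, y axis from 0) in every library, with spleen groups as circles at left and Peyer's patch groups as triangles at right of each panel, for PBS (gray), soluble OVA (orange), and OVA NP (blue). Horizontal bars are means and whiskers are SD (n = 3). *Prdm1*, *Ell2*, *Tent5c*, and *Jchain* were higher in all 9 libraries of Peyer's patch than in all 9 of spleen, whereas *Tnfrsf17* reached at most 0.509 CPM. The share of all genes separated in this way was not counted. Called higher in Peyer's patch were 25.5% of all tested genes after PBS, 26.7% after soluble OVA, and 22% after OVA NPs.

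The transcription factors are described first. *Xbp1* (ENSMUSG00000020484, chr11:5520659-5525893, plus strand, GRCm38) encodes the factor that drives ER expansion once its mRNA is spliced by IRE1, and these gene-level counts do not separate the spliced form. In spleen, its level was 64.4, 56.4, and 64.6 CPM in the PBS libraries, 94.5, 90.5, and 99.03 CPM after soluble OVA, and 117, 101, and 106 CPM after OVA NPs. The 3 groups did not overlap. The rise against PBS was called for OVA NPs (log2 fold change 0.81, 95% CI 0.67 to 0.96, adjusted p = 6.52e-06, edgeR) and for soluble OVA (log2 fold change 0.62, 95% CI 0.47 to 0.77, adjusted p = 2.55e-05, edgeR), and both calls were kept without each library in turn. Between OVA NPs and soluble OVA the difference was 0.20 (95% CI 0.04 to 0.35, adjusted p = 0.430, edgeR).

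Peyer's patch B cells had *Xbp1* at 91.2, 80.1, and 83.8 CPM after PBS, 87.98, 79.2, and 84.1 CPM after soluble OVA, and 113, 93.3, and 98.8 CPM after OVA NPs. The PBS and soluble OVA groups overlapped, and the OVA NP libraries were above both. The log2 fold change against PBS was 0.27 (95% CI 0.05 to 0.49, adjusted p = 0.430, edgeR) for OVA NPs and -0.04 (95% CI -0.21 to 0.14, adjusted p = 0.762, edgeR) for soluble OVA. OVA NPs against soluble OVA gave 0.29 (95% CI 0.07 to 0.51, adjusted p = 0.0514, edgeR), just outside the threshold, and 6 of the other ways to process the data placed it inside. The effect of soluble OVA was smaller in Peyer's patch than in spleen (Peyer's patch minus spleen -0.65, 95% CI -0.87 to -0.42, adjusted p = 0.00166, edgeR), a call kept without each library in turn. For OVA NPs the same difference was -0.53 (95% CI -0.80 to -0.26, adjusted p = 0.0292, edgeR), and it was no longer called in 7 of the 12 fits without 1 library. Peyer's patch was above spleen in PBS-treated mice (log2 fold change 0.48, 95% CI 0.31 to 0.66, adjusted p = 6.91e-04, edgeR), and the tissues were not called different after either OVA form.

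*Irf4* (ENSMUSG00000021356, chr13:30749226-30766976, plus strand) went the other way. In spleen it was at 204, 216, and 212 CPM after PBS, 159, 173, and 176 CPM after soluble OVA, and 160.2, 171, and 201 CPM after OVA NPs. Every library of the treated groups was below the PBS libraries. *Irf4* fell after soluble OVA (log2 fold change -0.31, 95% CI -0.45 to -0.18, adjusted p = 0.00319, edgeR), a call lost when all 18 libraries shared 1 fit (adjusted p = 0.463, edgeR). After OVA NPs the adjusted p passed the threshold and the change stayed under the fold cutoff (log2 fold change -0.24, 95% CI -0.39 to -0.09, adjusted p = 0.0281, edgeR). The change was called without OVA NP library 3 (log2 fold change -0.34) and with no filter on low counts (-0.26). Its adjusted p was above the threshold without any other single library (0.0618 to 0.127, edgeR) and when all 18 libraries shared 1 fit (0.612, edgeR).

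Peyer's patch libraries had *Irf4* at 301, 462, and 318 CPM after PBS, 187, 127, and 129.9 CPM after soluble OVA, and 139.6, 284, and 258 CPM after OVA NPs. PBS library 2 was the highest of all libraries, and the soluble OVA libraries lay below all PBS libraries. The fall after soluble OVA was the largest change of any member against PBS in this tissue (log2 fold change -1.30, 95% CI -1.86 to -0.73, adjusted p = 0.01001, edgeR), and without PBS library 2 it was -1.04. After OVA NPs the change was -0.66 (95% CI -1.45 to 0.13, adjusted p = 0.547, edgeR). All 3 OVA NP libraries lay below all PBS libraries, from 139.6 to 284 CPM against 301 to 462 CPM. The change was -0.44 without PBS library 2 and -0.41 without OVA NP library 1, and neither was called. OVA NPs against soluble OVA gave 0.62 (95% CI -0.21 to 1.46, adjusted p = 0.221, edgeR), and without OVA NP library 1 it was called at 0.82. The fall after soluble OVA was larger in Peyer's patch than in spleen (Peyer's patch minus spleen -0.98, 95% CI -1.52 to -0.44, adjusted p = 0.0376, edgeR), but this call was lost in 8 of the 12 fits without 1 library, with no filter on low counts, and when all 18 libraries shared 1 fit. Without PBS library 2 it was kept, at -0.75.

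In Peyer's patch, *Irf4* moved with genes of the immediate-early response, which cells transcribe within minutes of a stimulus or of stress. The 16 such genes, a list added after the data were seen, summed to 3738, 6175, and 4820 CPM in the PBS libraries of Peyer's patch, to 2492, 2263, and 1832 CPM after soluble OVA, and to 2434, 4422, and 4152 CPM after OVA NPs. In spleen the sum lay between 1062 and 1280 CPM. The 2 OVA NP libraries with high sums were those with high *Irf4*. After soluble OVA, 13 of the 16 genes were called lower and 0 higher in Peyer's patch, beside the fall of *Irf4*. There, 13.9% of all tested genes were called lower. In spleen, where *Irf4* also fell, 1 of the 15 tested was called lower and 2 higher, against 6.72% and 10.5% of all genes. The part of the immediate-early genes in the *Irf4* result was not tested.

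**Figure D2:**
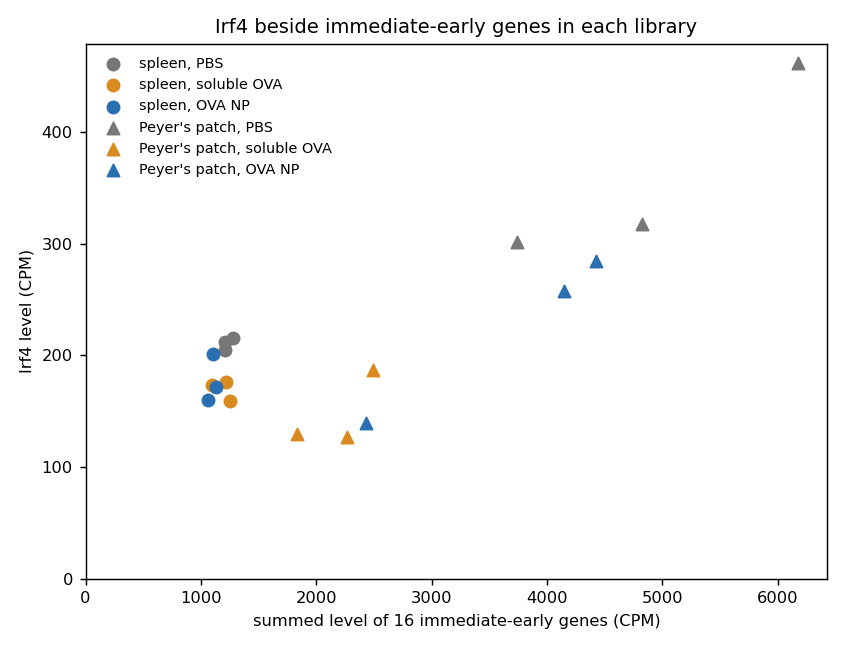
Level of *Irf4* (CPM, y axis) against the summed level of 16 immediate-early genes (CPM, x axis) in each of the 18 libraries, with spleen as circles and Peyer's patch as triangles, colored by treatment. Spleen libraries sit together between 1062 and 1280 CPM on the x axis, and the 3 PBS libraries of Peyer's patch are the highest on the y axis, between 301 and 462 CPM.

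*Prdm1* (ENSMUSG00000038151, chr10:44437177-44528501, minus strand), the gene of Blimp-1, was low throughout. Its level in spleen was 4.85, 3.34, and 4.52 CPM after PBS, 4.89, 6.09, and 6.71 CPM after soluble OVA, and 4.81, 6.42, and 6.93 CPM after OVA NPs. The lowest treated libraries were level with the highest PBS library. The log2 fold change was 0.53 (95% CI 0.10 to 0.95, adjusted p = 0.0754, edgeR) for OVA NPs and 0.47 (95% CI 0.05 to 0.90, adjusted p = 0.112, edgeR) for soluble OVA, so neither passed the threshold. Both were further outside it by DESeq2 (adjusted p = 0.141 and 0.240). Leaving out library 1 of the treated group, the lowest of each group, placed each inside it (adjusted p = 0.0415 and 0.0490, edgeR). The level in Peyer's patch was 9.58, 14.1, and 8.71 CPM after PBS, 10.5, 9.40, and 8.81 CPM after soluble OVA, and 7.59, 11.9, and 10.97 CPM after OVA NPs, and the 3 groups overlapped. Its difference between tissues is the clearer one: every Peyer's patch library was above every spleen library, and in PBS-treated mice the gap was 1.35 (95% CI 0.85 to 1.86, adjusted p = 7.25e-04, edgeR).

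The members that act on RNA come next. *Tent5c* (ENSMUSG00000044468, chr3:100451628-100489324, minus strand) encodes a poly(A) polymerase that stabilizes mRNAs of secreted proteins, immunoglobulin among them. In spleen it was at 7.32, 5.33, and 6.06 CPM after PBS, 11.7, 13.3, and 18.7 CPM after soluble OVA, and 18.3, 18.2, and 15.04 CPM after OVA NPs. Both treated groups lay above all PBS libraries and overlapped each other. The rise was called for OVA NPs (log2 fold change 1.46, 95% CI 1.16 to 1.76, adjusted p = 9.86e-06, edgeR) and for soluble OVA (log2 fold change 1.22, 95% CI 0.83 to 1.61, adjusted p = 4.98e-04, edgeR), and it was called without each library in turn. The difference between the 2 OVA forms was 0.24 (95% CI -0.12 to 0.61, adjusted p = 0.715, edgeR).

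*Tent5c* in Peyer's patch was at 36.01, 47.2, and 28.2 CPM after PBS, 42.4, 38.5, and 30.8 CPM after soluble OVA, and 25.01, 36.6, and 40.7 CPM after OVA NPs. The 3 groups overlapped. Against PBS the log2 fold change was -0.11 (95% CI -0.64 to 0.42, adjusted p = 0.885, edgeR) for OVA NPs and -0.0045 (95% CI -0.47 to 0.46, adjusted p = 0.990, edgeR) for soluble OVA, with intervals too wide to show that the level was constant. The effect of OVA NPs differed between the tissues (Peyer's patch minus spleen -1.56, 95% CI -2.19 to -0.93, adjusted p = 0.0127, edgeR), and this was called without each library in turn. For soluble OVA the difference was -1.22 (95% CI -1.90 to -0.54, adjusted p = 0.0376, edgeR), and it was lost in 9 of the 12 fits without 1 library and with no filter on low counts. In PBS-treated mice *Tent5c* had the widest gap between the tissues of the 8 tested members, at 2.58 (95% CI 2.15 to 3.02, adjusted p = 1.04e-05, edgeR).

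*Ell2* (ENSMUSG00000001542, chr13:75706757-75772364, plus strand) encodes an elongation factor that favors the secreted over the membrane form of immunoglobulin heavy chain mRNA. Its levels were among the tightest, at 54.2, 53.9, and 55.1 CPM in spleen after PBS, 61.8, 66.4, and 68.4 CPM after soluble OVA, and 66.5, 66.05, and 67.7 CPM after OVA NPs. All treated libraries were above all PBS libraries. The rise was small and called for OVA NPs (log2 fold change 0.30, 95% CI 0.19 to 0.42, adjusted p = 0.00120, edgeR) and for soluble OVA (log2 fold change 0.27, 95% CI 0.13 to 0.41, adjusted p = 0.00984, edgeR), and without soluble OVA library 3 the latter fell to 0.24, under the fold cutoff. *Ell2* in Peyer's patch was at 90.97, 85.7, and 82.7 CPM after PBS, 104, 120.0, and 119 CPM after soluble OVA, and 83.4, 105, and 94.2 CPM after OVA NPs. It rose after soluble OVA (log2 fold change 0.39, 95% CI 0.20 to 0.58, adjusted p = 0.00760, edgeR), and the change after OVA NPs was 0.13 (95% CI -0.06 to 0.33, adjusted p = 0.631, edgeR). OVA NPs against soluble OVA gave -0.27 (95% CI -0.47 to -0.06, adjusted p = 0.0515, edgeR), just outside the threshold, and 5 of the other ways to process the data placed it inside.

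**Figure D3:**
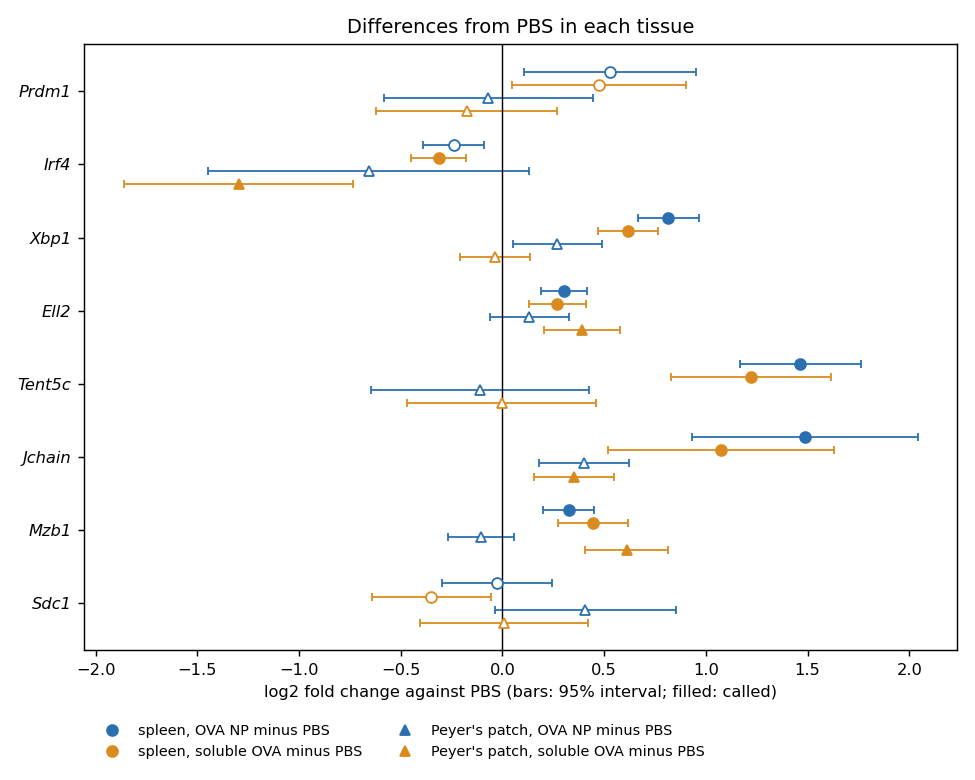
Log2 fold change against PBS (x axis) of the 8 tested members (y axis) after OVA NPs (blue) and soluble OVA (orange), in spleen (circles) and Peyer's patch (triangles). Bars are 95% intervals, not adjusted for multiple tests, and filled symbols mark calls, 5 for OVA NPs and 6 for soluble OVA in spleen, against 0 and 4 for Peyer's patch.

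The members that assemble antibody follow. *Jchain* (ENSMUSG00000067149, chr5:88519809-88527891, minus strand) encodes the joining chain that links IgM into pentamers and IgA into dimers. In spleen it was at 141, 85.6, and 98.6 CPM after PBS, 226, 201, and 259 CPM after soluble OVA, and 312, 308, and 289 CPM after OVA NPs. The 3 groups did not overlap, and OVA NP libraries were the highest. The rise was called for OVA NPs (log2 fold change 1.49, 95% CI 0.93 to 2.04, adjusted p = 0.0115, edgeR) and for soluble OVA (log2 fold change 1.08, 95% CI 0.52 to 1.63, adjusted p = 0.0256, edgeR). The first call was lost without OVA NP library 1 (adjusted p = 0.0602, edgeR), with the fold change at 1.46, and the second was lost without PBS library 3, without soluble OVA library 1 or 3, and with no filter on low counts (highest adjusted p = 0.116, edgeR). OVA NPs against soluble OVA gave 0.41 (95% CI 0.22 to 0.60, adjusted p = 0.105, edgeR), which was called by DESeq2 (adjusted p = 0.00125) and with no filter on low counts.

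*Jchain* in Peyer's patch was at 572, 497, and 479 CPM after PBS, 677, 699, and 617 CPM after soluble OVA, and 734, 676, and 613 CPM after OVA NPs. Both treated groups lay above all PBS libraries. The rise after soluble OVA was called (log2 fold change 0.35, 95% CI 0.16 to 0.55, adjusted p = 0.0149, edgeR), though not when all 18 libraries shared 1 fit (adjusted p = 0.0546, edgeR). After OVA NPs it was of like size and not called (log2 fold change 0.40, 95% CI 0.18 to 0.62, adjusted p = 0.261, edgeR), and it was called by DESeq2 (adjusted p = 0.0203) and with no filter on low counts. The effect of OVA NPs was smaller here than in spleen (Peyer's patch minus spleen -1.07, 95% CI -1.56 to -0.58, adjusted p = 0.0241, edgeR), a call lost in 6 of the 12 fits without 1 library and with no filter on low counts. For soluble OVA the difference was -0.72 (95% CI -1.21 to -0.23, adjusted p = 0.0838, edgeR), and it was called without spleen PBS library 1 (-0.94) and when all 18 libraries shared 1 fit.

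*Mzb1* (ENSMUSG00000024353, chr18:35647267-35649367, minus strand) encodes an ER protein that helps fold and assemble IgM. It was at 100.2, 90.8, and 105 CPM in spleen after PBS, 150.3, 119, and 132 CPM after soluble OVA, and 119.7, 121, and 128 CPM after OVA NPs. All treated libraries were above all PBS libraries. *Mzb1* rose after OVA NPs (log2 fold change 0.33, 95% CI 0.20 to 0.45, adjusted p = 0.00136, edgeR) and after soluble OVA (log2 fold change 0.44, 95% CI 0.27 to 0.62, adjusted p = 0.00162, edgeR), calls kept without each library in turn. Its level in Peyer's patch was 128, 112, and 119 CPM after PBS, 206, 177, and 168 CPM after soluble OVA, and 106, 113, and 112 CPM after OVA NPs. Soluble OVA libraries stood above all the others, and the OVA NP group overlapped the PBS group. The rise after soluble OVA (log2 fold change 0.61, 95% CI 0.41 to 0.81, adjusted p = 0.00131, edgeR) and the lower level after OVA NPs than after soluble OVA (log2 fold change -0.73, 95% CI -0.95 to -0.51, adjusted p = 9.34e-04, edgeR) were called without each library in turn, whereas OVA NPs against PBS gave -0.11 (95% CI -0.27 to 0.06, adjusted p = 0.647, edgeR). Between the OVA forms in Peyer's patch, 16.3% of all genes were called lower after OVA NPs. So were 13 of 15 germinal center genes and 15 of 15 proliferation genes. T cell markers summed to 23.3 to 32.9 CPM after OVA NPs and 6.46 to 12.9 CPM after soluble OVA. Monocyte and macrophage markers summed to 142 to 233 and 91.6 to 107 CPM. Mitochondrial transcripts took 9.08% to 9.80% and 4.97% to 6.02% of counts. Their part in the *Mzb1* difference was not tested. The effect of OVA NPs on *Mzb1* differed between the tissues (Peyer's patch minus spleen -0.42, 95% CI -0.62 to -0.22, adjusted p = 0.0238, edgeR), a call lost in 8 of the 12 fits without 1 library and when all 18 libraries shared 1 fit.

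The surface proteins showed no call against PBS. *Sdc1* (ENSMUSG00000020592, chr12:8771323-8793715, plus strand) encodes CD138, which plasma cells and epithelial cells carry. In spleen it was at 16.7, 13.9, and 11.6 CPM after PBS, 11.5, 11.7, and 9.94 CPM after soluble OVA, and 13.2, 13.4, and 14.5 CPM after OVA NPs. The OVA NP libraries lay within the range of the PBS libraries, and the soluble OVA libraries were near or below its lowest. The log2 fold change was -0.03 (95% CI -0.30 to 0.24, adjusted p = 0.903, edgeR) after OVA NPs and -0.35 (95% CI -0.64 to -0.06, adjusted p = 0.0887, edgeR) after soluble OVA. The latter was called lower without PBS library 3 (adjusted p = 0.0336, edgeR) and with no filter on low counts, and was not called by DESeq2 (adjusted p = 0.202). *Sdc1* in Peyer's patch was at 15.6, 11.4, and 17.6 CPM after PBS, 13.5, 17.7, and 14.2 CPM after soluble OVA, and 22.7, 20.2, and 15.98 CPM after OVA NPs, and the groups overlapped. *Sdc1* was called higher in Peyer's patch than in spleen after soluble OVA (log2 fold change 0.45, 95% CI 0.13 to 0.78, adjusted p = 0.0233, edgeR) and after OVA NPs (log2 fold change 0.57, 95% CI 0.24 to 0.89, adjusted p = 0.0117, edgeR). After PBS the *Sdc1* difference was 0.11 (95% CI -0.31 to 0.53, adjusted p = 0.656, edgeR). Of the intestinal epithelium markers, 8 of 8 were called higher in Peyer's patch in each treatment, PBS included, as were 22% to 26.7% of all genes. Their part in the *Sdc1* difference was not tested.

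*Tnfrsf17* (ENSMUSG00000022496, chr16:11313812-11320074, plus strand) encodes BCMA, a survival receptor of plasma cells. It had 1 to 13 counts in a library, or 0.0732 to 0.509 CPM, and failed the filter in every comparison. In spleen it had 4, 3, and 4 counts after PBS, 4, 2, and 2 after soluble OVA, and 6, 2, and 4 after OVA NPs. Its counts in Peyer's patch were 12, 1, and 4 after PBS, 11, 13, and 5 after soluble OVA, and 6, 10, and 4 after OVA NPs. The groups overlapped in every comparison of treatments within a tissue and between the tissues after PBS and after OVA NPs. After soluble OVA, the 3 Peyer's patch libraries were above the 3 spleen libraries. Fitted with no filter on low counts, that difference was 1.47 on the log2 scale (adjusted p = 0.308, edgeR).

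The tissues differed in most members. In PBS-treated mice 7 of 8 members were called higher in Peyer's patch, all but *Sdc1*, where 25.5% of all tested genes were called higher and 20.1% lower. After soluble OVA, 6 were called higher, against 26.7% of genes higher and 24.3% lower. After OVA NPs it was 5, against 22% and 15.1%, and 0 members were called lower in any treatment. *Prdm1*, *Ell2*, *Tent5c*, and *Jchain* were called in all 3 treatments. For *Jchain* the log2 gap was 2.27 (95% CI 1.76 to 2.77, adjusted p = 3.08e-04, edgeR) after PBS, 1.54 (95% CI 1.31 to 1.76, adjusted p = 2.20e-06, edgeR) after soluble OVA, and 1.21 (95% CI 1.02 to 1.39, adjusted p = 8.93e-06, edgeR) after OVA NPs. For *Ell2* it ran from 0.54 to 0.80. *Irf4* was called higher in Peyer's patch after PBS (log2 fold change 0.79, 95% CI 0.44 to 1.13, adjusted p = 0.00369, edgeR), and was at 0.58 and still called without Peyer's patch PBS library 2. After OVA NPs it was 0.40 (95% CI -0.30 to 1.10, adjusted p = 0.309, edgeR), and without Peyer's patch OVA NP library 1 it was called higher, at 0.63. After soluble OVA it was -0.20 (95% CI -0.54 to 0.15, adjusted p = 0.293, edgeR), and without Peyer's patch soluble OVA library 1 it was called lower, at -0.39. The *Mzb1* call after PBS was lost without spleen PBS library 2 or Peyer's patch PBS library 1, and the *Prdm1* call after OVA NPs without spleen library 1 or Peyer's patch library 2. The *Sdc1* call after soluble OVA was lost without spleen library 3 or Peyer's patch library 2, and that after OVA NPs without spleen library 2.

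Markers of other cells and states moved with the tissue. After PBS, soluble OVA, and OVA NPs, 25.5%, 26.7%, and 22% of all tested genes were called higher in Peyer's patch. Called lower were 20.1%, 24.3%, and 15.1%. All 15 germinal center genes were called higher in Peyer's patch in each treatment, with a median log2 fold change of 4.60 after PBS, 2.46 after soluble OVA, and 1.85 after OVA NPs. Of 15 proliferation genes, 15 were called higher after PBS, 15 after soluble OVA, and 3 after OVA NPs. Of the 7 B cell markers, 6 were called lower in each treatment, with medians of -0.47, -0.71, and -0.36. Of 5 NK cell markers, 4 were called higher in each treatment, and 1 was called lower after soluble OVA. Called higher were 4 of the 4 tested T cell markers after PBS, 3 of 5 after soluble OVA, and 7 of 7 after OVA NPs. Plasmacytoid dendritic cell markers were called higher for 2 of 5, 4 of 5, and 5 of 6. Monocyte and macrophage markers were called lower for 5, 2, and 0 of 7. The part of these cells and states in the tissue differences of the members was not tested.

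**Figure D4:**
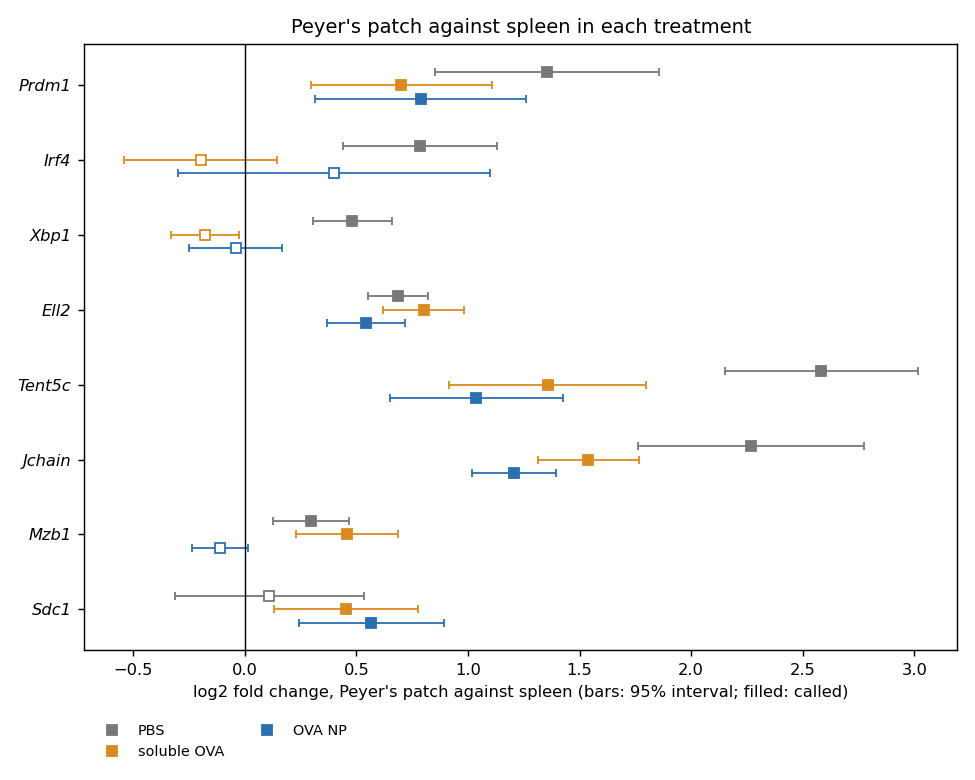
Log2 fold change of Peyer's patch against spleen (x axis) of the 8 tested members (y axis) in PBS-treated (gray), soluble OVA–treated (orange), and OVA NP–treated mice (blue). Bars are 95% intervals, not adjusted for multiple tests, and filled symbols mark calls. The gap of *Tent5c* runs from 1.04 after OVA NPs to 2.58 after PBS, and that of *Jchain* from 1.21 to 2.27.

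Whether a treatment effect itself differed between the tissues was tested in a fit to 12 libraries. For OVA NPs, 4 of 8 members had a lower effect in Peyer's patch than in spleen (*Xbp1*, *Tent5c*, *Jchain*, and *Mzb1*) and 0 a higher one, where 3.54% of all 16619 genes were called lower and 0.872% higher. For soluble OVA, 3 had a lower effect (*Irf4*, *Xbp1*, and *Tent5c*) and 0 a higher one, where 5.07% and 1.77% of genes did. The *Tent5c* difference for OVA NPs and the *Xbp1* difference for soluble OVA were called without each library in turn. The other 5 were lost in 6 to 9 of the 12 such fits.

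Levels over the 6 groups can be put in order. *Jchain* was lowest in spleen PBS, followed by spleen soluble OVA, spleen OVA NP, and Peyer's patch PBS, with no overlap between neighbors, and the 2 OVA groups of Peyer's patch were highest and overlapped. *Tent5c* had the same order of tissues, and its 3 Peyer's patch groups overlapped, as did its treated spleen groups. *Xbp1* had spleen PBS lowest without overlap and spleen OVA NP highest, and each of the 5 groups above spleen PBS overlapped its neighbor. *Irf4* had Peyer's patch soluble OVA lowest, at 148 ± 33.6 CPM (SD, n = 3), and Peyer's patch PBS highest, at 360.3 ± 88.3 CPM. *Mzb1* had spleen PBS lowest and Peyer's patch soluble OVA highest, both apart from their neighbors.

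The regions just upstream of 3 members are shown because the first 2 genes rose in spleen after both OVA forms and the third fell after soluble OVA. They are the 250 bases before the RefSeq start of each gene (GRCm38.p6, written along the strand of the gene), and RefSeq entries were matched for 8 of the 9 members. The capitals mark CCACG, a core letter string of sites for the unfolded protein response.
Jchain, chr5:88527898-88528147, minus strand: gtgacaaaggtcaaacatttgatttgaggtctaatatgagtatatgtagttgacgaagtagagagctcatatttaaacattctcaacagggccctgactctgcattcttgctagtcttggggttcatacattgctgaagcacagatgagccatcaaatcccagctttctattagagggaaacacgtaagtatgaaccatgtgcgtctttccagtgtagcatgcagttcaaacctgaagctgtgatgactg
Xbp1, chr11:5520391-5520640, plus strand: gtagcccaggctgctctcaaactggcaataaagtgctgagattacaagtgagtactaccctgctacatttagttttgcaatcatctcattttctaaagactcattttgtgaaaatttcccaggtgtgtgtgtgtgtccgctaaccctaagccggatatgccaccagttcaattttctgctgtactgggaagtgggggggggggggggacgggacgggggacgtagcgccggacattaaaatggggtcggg
Irf4, chr13:30748983-30749232, plus strand: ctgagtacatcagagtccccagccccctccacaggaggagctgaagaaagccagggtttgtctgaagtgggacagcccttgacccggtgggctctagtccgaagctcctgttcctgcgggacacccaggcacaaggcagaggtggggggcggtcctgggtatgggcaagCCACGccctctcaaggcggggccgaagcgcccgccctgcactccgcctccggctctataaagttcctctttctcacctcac
GC content was 42% for *Jchain*, 50.4% for *Xbp1*, and 63.6% for *Irf4*, against a median of 52.4% over 32851 RefSeq promoters. On either strand, CCACG was found in 3 of the 8 member regions (*Irf4*, *Prdm1*, and *Sdc1*) and in 28.3% of all promoters. TGACGTG, a string bound by ATF6 and XBP1, was in 0 of 8 and in 1.65% of all. GAAAGTG, a string bound by Blimp-1, was in *Tnfrsf17* only and in 4.01% of all, and TGAGTCA, an AP-1 string, in 0 of 8 and 4.46% of all. A TGACGTG followed by G also holds CCACG on the other strand, so these 2 strings can overlap.

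Other genes of the secretory path were counted from lists, which were also chosen with earlier results of these data known. Of 23 XBP1 target and ER secretory genes, 14 were called higher in spleen after OVA NPs and 0 lower, and 10 and 0 after soluble OVA. The shares of all tested genes called higher and lower were 8.6% and 6.35% after OVA NPs, and 10.5% and 6.72% after soluble OVA. The list's median log2 fold change was 0.30 and 0.22, against 6.19e-04 and -0.01 for all genes. *Sdf2l1*, an ER cochaperone, changed by 1.09 ± 0.12 (log2, ± SE) after OVA NPs and 0.99 ± 0.11 after soluble OVA. The chaperone *Hsp90b1* changed by 0.58 ± 0.06 and 0.38 ± 0.07, and *Hspa5*, the ER chaperone BiP, by 0.46 ± 0.05 and 0.31 ± 0.06. Of the 23, 0 were called in Peyer's patch after OVA NPs, and 8 were called higher and 1 lower after soluble OVA. There, 0% of all tested genes were called after OVA NPs, and 13.5% were called higher and 13.9% lower after soluble OVA.

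Of 22 further plasma cell genes, 5 were called higher and 1 lower in spleen after OVA NPs, and 5 and 2 after soluble OVA. Of all tested genes, 8.6% were called higher and 6.35% lower after OVA NPs, and 10.5% and 6.72% after soluble OVA. The 5 were the same in both: *Eaf2*, *Derl3*, *Creld2*, *Plpp5*, and *Edem1*. *Derl3*, of the ER degradation machinery, changed by 0.84 ± 0.15 (log2, ± SE) after OVA NPs and 0.72 ± 0.18 after soluble OVA, and *Creld2*, an ER stress gene, by 0.80 ± 0.09 and 0.48 ± 0.09. *Eaf2*, by far the most changed at 2.40 ± 0.16 and 2.74 ± 0.19, is also a germinal center gene and stands in that list too. *Tnfrsf13b*, the receptor TACI, was the one called lower after OVA NPs, at -0.38 ± 0.08. In Peyer's patch 0 were called after OVA NPs, and 4 higher and 5 lower after soluble OVA. There, 0% of all tested genes were called after OVA NPs, and 13.5% were called higher and 13.9% lower after soluble OVA.

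Of 12 genes of the B cell program opposed to plasma cell differentiation, 0 were called higher and 2 lower in spleen after OVA NPs. These were *Ets1* at -0.36 ± 0.07 and *Id3* at -0.36 ± 0.07 (log2 ± SE). After soluble OVA, *Bcl6* (0.33 ± 0.07) and *Ciita* (0.30 ± 0.08) were called higher and *Ets1* lower (-0.26 ± 0.07). Among all tested genes, 8.6% were called higher and 6.35% lower after OVA NPs, and 10.5% and 6.72% after soluble OVA. *Pax5*, the central B cell factor that Blimp-1 silences, was not called in either, at -0.21 ± 0.08 and -0.04 ± 0.08.

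Germinal center and proliferation genes moved with the spleen result. Of 15 germinal center genes, 13 of the 14 tested were called higher after OVA NPs and 15 of 15 after soluble OVA, and all 15 proliferation genes were in both. The shares of all tested genes called higher were 8.6% after OVA NPs and 10.5% after soluble OVA. Germinal center genes summed to 71.7 to 162 CPM after PBS, 445 to 513 CPM after OVA NPs, and 488 to 772 CPM after soluble OVA. In Peyer's patch 14 of 15 germinal center genes and 15 of 15 proliferation genes were called higher after soluble OVA, and 0 of either after OVA NPs. There, 13.5% of all tested genes were called higher after soluble OVA, and 0% were called after OVA NPs. Monocyte and macrophage markers went the other way in spleen, with 2 of 8 called lower after OVA NPs and 4 of 7 after soluble OVA. Of all tested genes in spleen, 6.35% and 6.72% were called lower. Plasmacytoid dendritic cells also express some members, and of their markers 0 of the 5 tested were called in either spleen comparison. Their sum was 190 to 208 CPM after PBS, 181 to 186 CPM after soluble OVA, and 174 to 179 CPM after OVA NPs, with no overlap. Of 6 dendritic cell markers, 2 were called lower and 0 higher after OVA NPs, and 1 lower and 1 higher after soluble OVA. The part of these cells in the changes of the members was not tested.

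Of 12 immunoglobulin constant regions, 3 were called higher and 1 lower in spleen after OVA NPs, and 3 higher and 3 lower after soluble OVA. Over all tested genes, 8.6% were called higher and 6.35% lower after OVA NPs, and 10.5% and 6.72% after soluble OVA. Their median log2 fold change was 0.21 and 0.04, against 6.19e-04 and -0.01 for all genes. *Ighg1*, the heavy chain of IgG1, changed by 3.73 ± 0.39 (log2, ± SE) after OVA NPs and 4.19 ± 0.45 after soluble OVA. *Ighe*, of IgE, changed by 2.26 ± 0.21 and 2.28 ± 0.33. *Igkc*, the kappa light chain, changed by 0.25 ± 0.08 after OVA NPs. The summed constant regions overlapped between the groups, at 6728 to 7525 CPM after PBS, 6315 to 6927 CPM after soluble OVA, and 6846 to 7562 CPM after OVA NPs.

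The genes most like each member were sought by Pearson r of log2 CPM centered within tissue, over 18 libraries that share treatments and depths, among 11996 other genes. As a description, *Irf4* was most like *Mafk* (r = 0.977), *Btg2* (r = 0.969), and *Irf2bp2* (r = 0.962). *Jchain* was most like *Hid1* (r = 0.909), *Creld2* (r = 0.906), and *Ido1* (r = 0.906), and *Xbp1* most like *Cish* (r = 0.918). *Tent5c* was most like *Evc* (r = 0.915), *Mzb1* most like *Eif3h* (r = 0.976), and *Ell2* most like *Nsd2* (r = 0.934). The leading r was lower for *Prdm1* (*Rgs1*, 0.835) and *Sdc1* (*Paqr7*, 0.839).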

How the data were processed

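The authors trimmed reads of poly(A) RNA libraries with cutadapt 2.3, mapped them with STAR 2.7.8a to GRCm38 (Ensembl 102), and estimated counts with RSEM 1.3.3; FastQC 0.11.8 and MultiQC 1.7 served quality control. The deposited values are expected counts per gene, not normalized, and 0 were fractional. Gene positions and exon lengths came from GENCODE M21 on GRCm38.

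The 6 libraries of each comparison (12 for a tissue difference) were fitted in edgeR 4.0.16 (R 4.3.3), after filterByExpr (minimum count 10, minimum total 15), TMM scaling, and the robust quasi-likelihood F test, with Benjamini-Hochberg adjustment over every gene tested. A gene was called at an adjusted p under 0.05 if its log2 fold change also exceeded 0.25 in size, a cutoff not used for tissue differences. Levels used 1 TMM scaling of all 18 libraries, and likeness used log2 CPM with a prior count of 2. The steps were tested on simulated data. The alternatives were DESeq2 1.42.0, its size factors, no fold cutoff, no filter, every library at 10 counts or more, immunoglobulin genes removed, shared fits, a replicate block, and each library left out.

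The members and the gene lists were chosen with earlier results of these data known, and the immediate-early list and the fit to 9 libraries of a tissue were added later. The text names the members, list genes called in spleen against PBS, defining markers, and up to 3 genes most like each member. *Mzb1* sequence is not shown.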

Additional observations from a re-analysis of the deposited data

Results flagged for a closer look

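For 7 results the effect of a treatment against PBS differed between Peyer's patch and spleen in the test of the interaction (edgeR, adjusted p under 0.05). For OVA NPs these were *Xbp1* (-0.53 on the log2 scale, Peyer's patch effect minus spleen effect), *Tent5c* (-1.56), *Jchain* (-1.07), and *Mzb1* (-0.42). In spleen each of these 4 was higher in 3 of 3 OVA NP libraries than in all PBS libraries, values that the interaction test also used. These groups did not overlap, in either direction, for 37.2% of all tested genes. For soluble OVA they were *Irf4* (-0.98), *Xbp1* (-0.65), and *Tent5c* (-1.22). The *Irf4* value is a larger fall in Peyer's patch, and the other values are a smaller effect there. Groups of 3 were too small for a test of single outlying libraries.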

How the results depend on the processing

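Counts of members called in the spleen against PBS, in Peyer's patch between soluble OVA and PBS, and between the tissues stayed within 1.5 times of the reported count under every alternative. Between OVA NPs and soluble OVA in spleen, DESeq2 and the fit with no filter on low counts each called 1 member in place of 0, as they did between OVA NPs and PBS in Peyer's patch, and it was *Jchain* each time. Between OVA NPs and soluble OVA in Peyer's patch, 1 member was reported. DESeq2, no filter, all 18 libraries in 1 fit, and the 9 libraries of the tissue in 1 fit (added after seeing the data) called 3 there, and DESeq2's size factors, at least 10 counts in every library, and removal of immunoglobulin genes called 2. Without 1 library it was 1 to 3 (3 without soluble OVA library 1, 2 without OVA NP library 1 or 2). For the tissue difference of the OVA NP effect the count was 1 to 4 without 1 library (1 without spleen OVA NP library 1 or Peyer's patch PBS library 1 or 3 or OVA NP library 2, and 2 without spleen PBS library 1 or 2 or OVA NP library 2). For soluble OVA it was 1 to 3 (1 without library 2 or 3 of spleen PBS, spleen soluble OVA, or Peyer's patch soluble OVA), and 1 with no filter. The cause of these changes was not tested.

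In no comparison were all 3 correlations between same-numbered libraries above 0.1 (range -0.38 to 0.24), so the numbers were not taken as pairs. With the replicate block, the tissue difference of the soluble OVA effect gave 1 member in place of 3, without *Irf4* (adjusted p = 0.0754, edgeR) and *Tent5c* (adjusted p = 0.0804, edgeR), and the other counts of members were the reported ones. The block also gave 3119 genes in place of 4697 between OVA NPs and soluble OVA in Peyer's patch, and 429 in place of 734 for the tissue difference of the OVA NP effect.

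Signs turned only for changes that were not called. Without 1 library, *Sdc1* ran from -0.15 to 0.11 (log2) between OVA NPs and PBS in spleen. Between OVA NPs and soluble OVA in spleen, *Prdm1* ran from -0.083 to 0.19, *Irf4* from -0.021 to 0.14, and *Ell2* from -0.020 to 0.078. In Peyer's patch between OVA NPs and PBS, *Prdm1* ran from -0.19 to 0.16 and *Tent5c* from -0.27 to 0.090. Between soluble OVA and PBS there, *Prdm1* ran from -0.26 to 0.089, *Xbp1* from -0.046 to 0.054, *Tent5c* from -0.12 to 0.23, and *Sdc1* from -0.12 to 0.20. Between the OVA forms there, *Prdm1* ran from -0.084 to 0.20, *Tent5c* from -0.32 to 1.81e-04, and *Jchain* from -0.11 to 0.064. Peyer's patch against spleen, *Sdc1* ran from -0.038 to 0.26 after PBS and *Xbp1* from -0.15 to 0.035 after OVA NPs. Between soluble OVA and PBS in Peyer's patch, *Xbp1* was 0.0051 with no filter, and *Tent5c*, near 0, was 0.024 with DESeq2, 0.013 with DESeq2's size factors, 0.038 with no filter, 0.031 with at least 10 counts in every library, 0.0079 in the fit to 18 libraries, 0.010 with the replicate block, and 0.012 in the fit to 9 libraries. *Jchain* between the OVA forms was -0.0022 with at least 10 counts in every library.

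Over all genes, OVA NPs against soluble OVA in spleen gave 33 calls, 83 with DESeq2, 230 with no filter, 14 in the fit to 18 libraries, and 0 to 40 without 1 library. OVA NPs against PBS in Peyer's patch gave 0, with 150, 146, 24, and 0 to 8, and 1 in the fit to 9 libraries. The tissue differences gave 1253 and 1849 with DESeq2 in place of 734 and 1131, and as few as 291 and 655 without 1 library. *Tnfrsf17*, at 1 to 13 counts, was tested with no filter alone, and the lowest adjusted p of its 11 comparisons was 0.308 (edgeR).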

Other observations

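*Igha*, the heavy chain of IgA, the antibody class whose dimers hold the joining chain, differed widely between the tissues. Its level was 4.87 to 8.95 CPM in the 9 spleen libraries and was not called against PBS there, at 0.16 ± 0.19 (log2 fold change ± SE) after OVA NPs and 0.27 ± 0.19 after soluble OVA, while *Jchain* rose. In Peyer's patch *Igha* was at 394 to 648 CPM after PBS, 1077 to 1388 CPM after soluble OVA, and 622 to 1152 CPM after OVA NPs. The rise after soluble OVA was called (1.18 ± 0.20, adjusted p = 0.00724, edgeR), and OVA NPs against PBS gave 0.71 ± 0.31 (adjusted p = 0.524, edgeR). The intestinal epithelium and immediate-early genes that also vary in this tissue are given above, and their part was not tested.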
